A study of Homo sapiens with 12 samples.

Results

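Ribosome biogenesis factors are the proteins that transcribe ribosomal RNA, cut and modify it, and assemble it with ribosomal proteins into the 2 ribosomal subunits. A list of 48 such genes was followed, of which 43 had a transcript cluster row with that single gene symbol, among 22465 named genes and 66212 rows tested. Of the 43, 23 act on the small subunit, 8 on the large subunit and 12 in other steps. NOP56, DKC1 and PPAN were matched to rows that carry several gene symbols and are not analysed here, and neither are GNL3 and DDX18. For genes with more than 1 row the brightest was used, which concerned BOP1 among the members.

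Total RNA was measured on 12 arrays, 48 h after transfection of Huh7 or Hep3B cells, which are established human liver cancer lines. The 4 groups were Huh7 with siRNA, Huh7 with negative control RNA, Hep3B with siRNA and Hep3B with negative control RNA, with 3 arrays each. According to its title, the series concerns a single long non-coding RNA. The labels name neither the target nor the sequence of the siRNA, and the level of that RNA is not analysed here, so the knockdown itself is not checked. Whether the 3 arrays of each group stand for independent cultures is not stated, and the p-values cover the spread between these arrays, which may be technical. Values are log2 intensities after quantile normalization, differences are siRNA minus control on that scale, and errors are standard errors of the fit (SE, n = 3 arrays per group). A gene was called higher or lower where limma's adjusted p was under 0.05 over all rows.

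Array medians as deposited ran from 3.82 to 3.94. One label of Huh7 control array 1, its description, speaks of Hep3B, against 3 labels that give Huh7. Over all rows it correlated at 0.984 or more with every other Huh7 array and at 0.960 or less with every Hep3B array. Of 7 measured liver cell genes, 6 or 7 lay above background in each group. Their summed log2 level was 75.1 to 76.7 on Huh7 siRNA arrays against 81.3 to 81.5 on Huh7 control arrays, and 77.4 to 78.5 on Hep3B siRNA arrays against 82.7 to 83.3 on Hep3B control arrays. Background here means the brightest of 23 background rows, with a mean of 5.50. None of 5 endothelial markers was above it, and LUM in Huh7 was the 1 of 5 fibroblast markers that was. Of 7 blood and macrophage markers, LYZ and CD68 were above it in all groups, and the other 5 were not. CD68, a lysosomal membrane protein, was higher with siRNA, by 1.14 in Huh7 and by 0.49 in Hep3B. The summed log2 level of the blood and macrophage list was 39.8 to 40.9 on Huh7 siRNA arrays against 39.3 to 39.7 on Huh7 control arrays, and 37.4 to 37.9 on Hep3B siRNA arrays against 36.9 to 37.3 on Hep3B control arrays. For the fibroblast list it was 21.8 to 22.3 against 21.4 to 22.5 in Huh7 and 19.6 to 20.3 against 19.9 to 20.2 in Hep3B, and for the endothelial list 17.4 to 17.7 against 17.4 to 17.9 and 17.3 to 17.5 against 17.4 to 17.5 (siRNA first). The part of these shifts in the results was not tested, and in bulk RNA fewer cells of a kind and less RNA per cell cannot be told apart.

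In the nucleolus, RNA polymerase I makes 1 long precursor RNA. Small nucleolar ribonucleoproteins (snoRNPs) modify it, the small subunit processome with U3 RNA folds and cuts its front part, and a separate set of factors matures the large subunit. Liver cancer cells grow with large nucleoli, and the transcription factor MYC is known to raise the genes of this pathway by binding E-box motifs.

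With siRNA, 11 of the 43 factors rose and 1 fell in Huh7, and 29 rose and none fell in Hep3B. Over all rows tested in Huh7, limma called 4.56% higher and 3.49% lower, and among the 7897 named genes above background 15.4% and 17.2%. In Hep3B the same shares were 5.63% higher and 4.66% lower over all rows, and 21.1% and 18% among named genes above background. In this fit the factors' share of rises was above the share among bright named genes in both lines, and their share of falls was below it. The factors were chosen with earlier results of these data known, and the difference from these shares was not tested. Their median log2 change was 0.19 in Huh7 (named genes above background -0.04) and 0.47 in Hep3B (named genes above background 0.00). The 11 factors that rose in Huh7 also rose in Hep3B, 18 rose in Hep3B without passing in Huh7, and 13 passed in neither. Among called rows of all kinds the upward share was 56.7% in Huh7, against 65% on the deposited values and 70.1% after median centring, and 54.7% in Hep3B, against 65.8% after median centring. Without Huh7 control array 2, 6 factors rose in Huh7, and 5 did when the 6 Huh7 arrays were fitted alone. The shares of other genes in these runs are not given here, so these counts cannot be set beside a share.

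**Figure D1:**
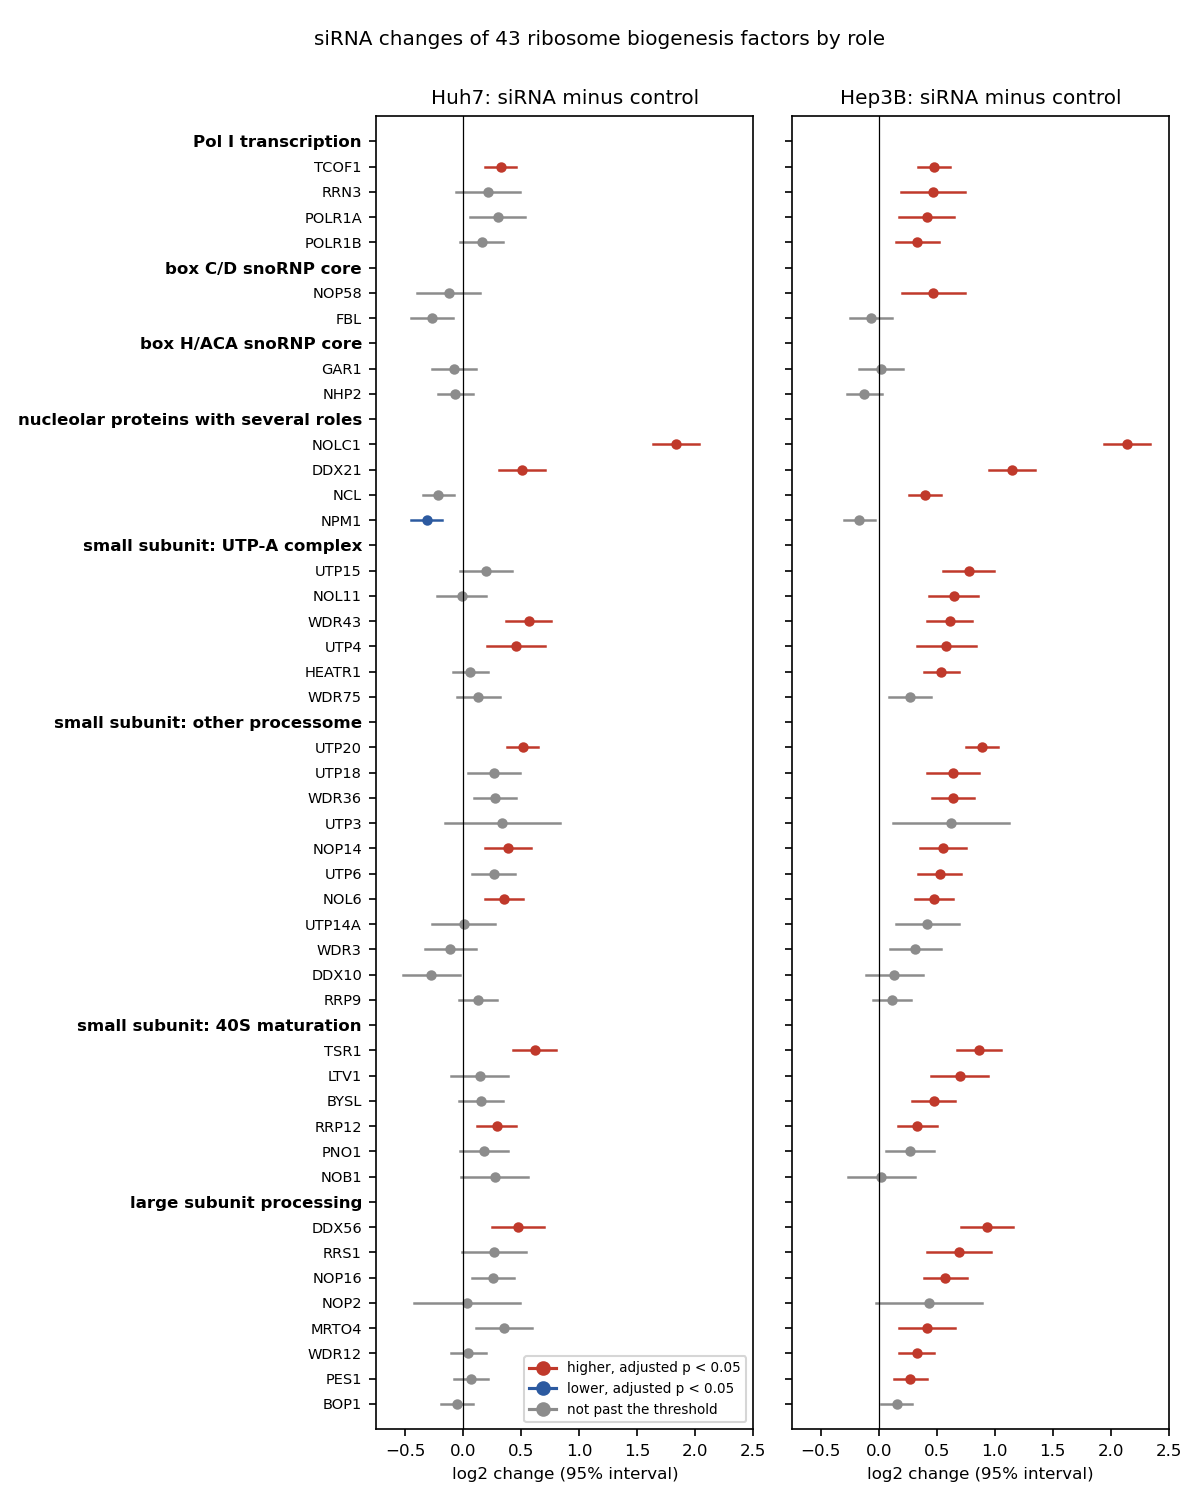
Log2 change, siRNA minus control, of 43 ribosome biogenesis factors in Huh7 (left) and Hep3B (right), grouped by role. Points are estimates and bars 95% intervals (n = 3 arrays per group); in Hep3B 29 factors were called higher and none lower, in Huh7 11 higher and 1 lower.

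The letters of the factors' promoters are described as RefSeq holds them (GRCh38.p14), from 250 bases before to 50 after the annotated start, 5′ to 3′ on the gene's strand. Any part of these letters in the changes was not tested. The E-box CACGTG, which reads the same on both strands, was in 15 of the 37 promoters found for measured factors (40.5%). It was in 7.28% of all 27305 promoters and in 10.6% of the 6077 found for named genes above background. It stood in 11 of 22 small subunit promoters and 3 of 6 large subunit promoters. Among the factors that rose in Hep3B, 10 of 24 promoters held it, and among those not called there 5 of 13 did, FBL included. The letters AAGATGG of the factor YY1 (either strand, no overlap with the E-box) were in 2 of 37 promoters (5.41%), those of PES1 and WDR75, against 6.04% of all promoters and 8.85% of those of named genes above background. A match is a description of the letters, not a binding site.

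Promoters of 5 factors are printed, with any E-box in capitals: 3 with the motif, from UTP18, UTP20 and WDR43, that of DDX21, the largest rise after NOLC1 in Hep3B, and that of NPM1, the 1 factor that fell, in Huh7. UTP18 at chr17:51260296-51260595 (plus strand) held 2 copies, starting at positions -89 and 5 relative to the annotated start. UTP20 at chr12:101279855-101280154 (plus strand) held 1 copy starting at -10, and WDR43 at chr2:28894417-28894716 (plus strand) held 1 starting at 4. DDX21 at chr10:68955920-68956219 (plus strand) and NPM1 at chr5:171386866-171387165 (plus strand) held none. All 5 were chosen by their values or letters.
UTP18: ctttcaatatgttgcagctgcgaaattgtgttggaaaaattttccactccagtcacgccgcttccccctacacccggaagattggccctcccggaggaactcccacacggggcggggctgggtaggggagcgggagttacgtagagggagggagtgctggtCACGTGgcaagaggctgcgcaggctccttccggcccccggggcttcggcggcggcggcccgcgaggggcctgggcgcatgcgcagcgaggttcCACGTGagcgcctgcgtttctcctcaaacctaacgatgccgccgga
UTP20: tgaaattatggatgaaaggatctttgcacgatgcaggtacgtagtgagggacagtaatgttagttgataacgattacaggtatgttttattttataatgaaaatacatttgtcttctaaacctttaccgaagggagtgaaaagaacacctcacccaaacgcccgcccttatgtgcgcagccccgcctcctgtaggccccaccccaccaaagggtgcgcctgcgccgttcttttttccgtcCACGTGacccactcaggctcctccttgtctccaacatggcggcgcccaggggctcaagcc
WDR43: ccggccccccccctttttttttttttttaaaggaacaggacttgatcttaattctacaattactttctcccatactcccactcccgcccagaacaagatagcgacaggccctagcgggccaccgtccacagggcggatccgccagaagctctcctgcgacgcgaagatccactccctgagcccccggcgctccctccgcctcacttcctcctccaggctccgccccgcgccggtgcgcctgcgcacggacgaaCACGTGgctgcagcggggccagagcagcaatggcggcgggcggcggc
DDX21: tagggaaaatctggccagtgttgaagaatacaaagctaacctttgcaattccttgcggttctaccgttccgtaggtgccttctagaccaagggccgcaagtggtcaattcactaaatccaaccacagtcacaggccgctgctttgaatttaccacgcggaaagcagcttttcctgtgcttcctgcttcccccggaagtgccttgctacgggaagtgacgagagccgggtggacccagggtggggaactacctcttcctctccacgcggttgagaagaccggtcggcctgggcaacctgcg
NPM1: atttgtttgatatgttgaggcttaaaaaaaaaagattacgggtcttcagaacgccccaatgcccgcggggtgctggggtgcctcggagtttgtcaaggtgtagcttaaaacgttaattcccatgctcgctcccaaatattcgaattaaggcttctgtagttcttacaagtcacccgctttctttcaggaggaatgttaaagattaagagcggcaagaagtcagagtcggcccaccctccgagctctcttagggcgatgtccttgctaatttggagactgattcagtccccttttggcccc

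Nucleolar proteins with several roles held the largest rise in both lines, that of NOLC1, and the 1 fall, that of NPM1 in Huh7. NOLC1 (Nopp140) is a chaperone of snoRNPs that moves between the nucleolus and Cajal bodies. Its level was 9.005, 8.94 and 8.99 on Huh7 siRNA arrays, against 7.16, 7.16 and 7.11 on Huh7 control arrays. In Hep3B it was 9.14, 9.50 and 9.43 with siRNA, against 7.23, 7.24 and 7.17 with control RNA. All 6 siRNA arrays lay far above all 6 control arrays. The fold change was 3.57 in Huh7 (limma adjusted p = 2.35e-06) and 4.42 in Hep3B (limma adjusted p = 3.74e-07).

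DDX21, an RNA helicase that couples polymerase I transcription to RNA processing, rose in both lines. It read 12.53, 12.43 and 12.68 on Huh7 siRNA arrays, against 12.14, 11.94 and 12.05 on Huh7 control arrays. Hep3B arrays read 13.00, 13.19 and 13.18 with siRNA, against 11.92, 12.06 and 11.94 with control RNA. The control levels of both lines overlapped, while the Hep3B siRNA arrays stood above the Huh7 siRNA arrays. The change was 0.51 ± 0.09 in Huh7 (adjusted p = 0.00484) and 1.15 ± 0.09 in Hep3B (adjusted p = 1.73e-05).

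Nucleolin, NCL, which binds nascent ribosomal RNA, showed opposite signs in the 2 lines. It read 14.50, 14.62 and 14.52 on Huh7 siRNA arrays, against 14.86, 14.72 and 14.71 on Huh7 control arrays, and 14.28, 14.37 and 14.35 on Hep3B siRNA arrays, against 13.92, 13.93 and 13.95 on Hep3B control arrays. The siRNA arrays were below the controls in Huh7 and above them in Hep3B, with no overlap in either line. The rise of 0.40 ± 0.06 in Hep3B was called (adjusted p = 0.00165). The Huh7 change of -0.22 ± 0.06 was not (adjusted p = 0.0598, and from 0.0166 to 0.259 over its alternatives, of which 4 passed). Nucleophosmin, NPM1, a histone chaperone and assembly factor, read 14.13, 14.14 and 14.20 on Huh7 siRNA arrays, against 14.56, 14.43 and 14.44 on Huh7 control arrays. It fell there by 0.32 ± 0.06 on the log2 scale (adjusted p = 0.00727). That call did not pass on the deposited values (adjusted p = 0.0905), after median centring (0.172) or with the 6 Huh7 arrays alone (0.0772), in a range from 0.00182 to 0.172 over its alternatives. In Hep3B NPM1 read 13.38, 13.30 and 13.31 with siRNA, against 13.56, 13.49 and 13.45 with control RNA, a change of -0.17 that did not pass (adjusted p = 0.117). NPM1, RRN3 and UTP14A have close copies elsewhere in the genome, and whether the rows tell them apart is not given in the sources used here.

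**Figure D2:**
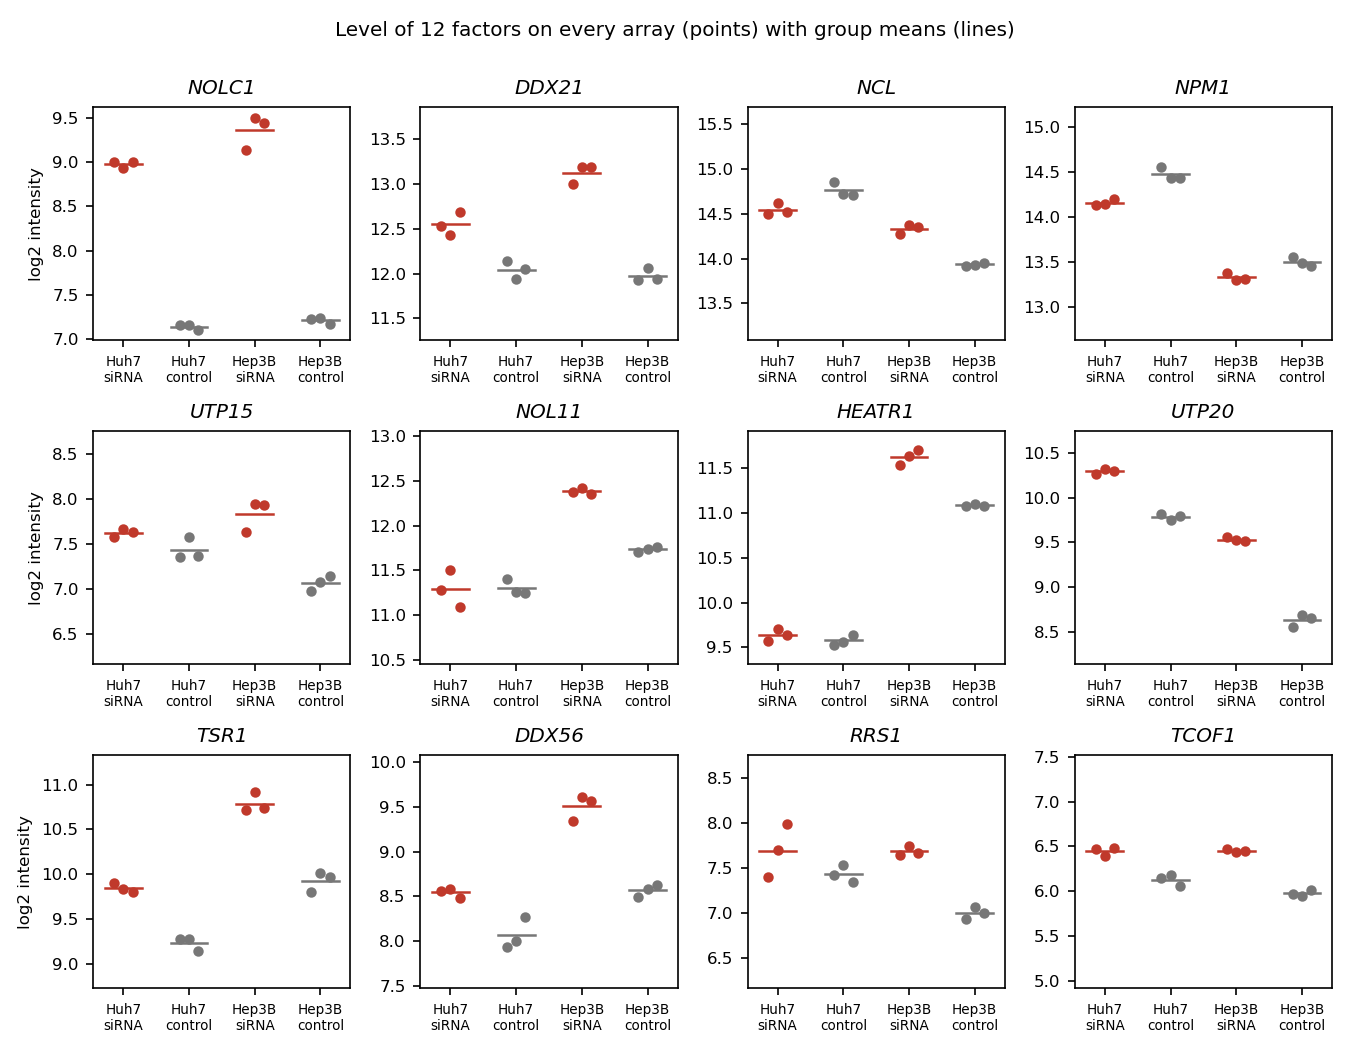
Level of 12 factors as log2 intensity on each of the 12 arrays, with siRNA arrays in red, control arrays in grey and lines at the group means of 3 arrays. NOLC1 had siRNA arrays from 8.94 to 9.50 and control arrays from 7.11 to 7.24. NCL was called higher with siRNA in Hep3B, and in Huh7 its siRNA arrays lay below the controls without a call. Axes differ in position between panels.

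The 4 polymerase I genes all rose in Hep3B, and 1 of them rose in Huh7, beside 21.1% and 15.4% of named genes above background. With 4 genes, the Huh7 count is no result about them. TCOF1, the treacle protein that holds polymerase I at ribosomal DNA, was the member called in both lines. It read 6.47, 6.40 and 6.49 on Huh7 siRNA arrays, against 6.15, 6.18 and 6.06 on Huh7 control arrays, and 6.47, 6.44 and 6.45 on Hep3B siRNA arrays, against 5.97, 5.95 and 6.01 on Hep3B control arrays. Every siRNA array was above every control array. The change was 0.32 ± 0.06 in Huh7 (adjusted p = 0.00752, and 0.0883 with the 6 Huh7 arrays alone) and 0.48 ± 0.06 in Hep3B (adjusted p = 0.000467). RRN3, the initiation factor TIF-IA that recruits the polymerase, read 7.84, 8.01 and 8.07 with siRNA against 7.81, 7.60 and 7.87 with control RNA in Huh7, where the groups overlapped. Its Hep3B values were 8.92, 9.29 and 9.42 against 8.77, 8.70 and 8.76 and was called higher by 0.47 ± 0.12 (adjusted p = 0.0365). The 2 largest polymerase subunits, POLR1A (0.30 in Huh7 and 0.41 in Hep3B) and POLR1B (0.16 and 0.33), passed in Hep3B alone. Calls of RRN3, POLR1A and POLR1B in Hep3B were lost without any single Hep3B array other than siRNA array 1.

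Of the snoRNP core proteins, 2 of box C/D and 2 of box H/ACA particles were measured, and 1 rose, NOP58 in Hep3B. Beside 21.1% of named genes above background in Hep3B and 15.4% in Huh7, these counts are no result about snoRNP proteins. FBL, the methyltransferase fibrillarin, changed by -0.27 ± 0.08 in Huh7 (adjusted p = 0.0789) and by -0.07 in Hep3B. NOP58, its box C/D partner, read 15.45, 15.36 and 15.11 on Huh7 siRNA arrays, against 15.54, 15.60 and 15.17 on Huh7 control arrays, which overlapped. In Hep3B it read 14.35, 14.59 and 14.57 with siRNA, against 14.03, 14.05 and 14.02 with control RNA, and rose by 0.47 ± 0.12 (adjusted p = 0.0332), a call lost without any single Hep3B array other than siRNA array 1. GAR1 and NHP2, of the box H/ACA particles that make pseudouridine, passed in neither line, with changes from -0.12 to 0.02. NHP2 lay below the brightest background row in all groups.

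Small subunit factors rose in 7 of 23 cases in Huh7 and in 15 of 23 in Hep3B, beside 15.4% and 21.1% of named genes above background, and none fell. Within the UTP-A complex, which binds the nascent precursor first, 2 of 6 rose in Huh7 and 5 of 6 in Hep3B. WDR43 read 12.93, 12.83 and 12.95 with siRNA in Huh7, against 12.45, 12.32 and 12.26 with control RNA, and 12.75, 12.99 and 13.04 in Hep3B, against 12.33, 12.37 and 12.25. Its siRNA arrays lay above the controls in both lines, with changes of 0.56 ± 0.09 in Huh7 and 0.61 ± 0.09 in Hep3B. UTP4 (0.46 and 0.58) was called in both lines too, but its Huh7 call was lost without any single Huh7 array other than control array 3, with cyclic loess and with the 6 Huh7 arrays alone (adjusted p from 0.00704 to 0.123 over its alternatives). UTP15 had the largest Hep3B rise of the complex, 0.77 ± 0.10 (adjusted p = 0.000477), with 7.63, 7.95 and 7.94 on siRNA arrays against 6.97, 7.08 and 7.15 on control arrays. In Huh7 its siRNA arrays (7.58, 7.67 and 7.63) lay just above the controls (7.35, 7.58 and 7.37), a change of 0.19 that did not pass. NOL11 read 11.28, 11.51 and 11.09 with siRNA in Huh7, around the control values of 11.41, 11.26 and 11.25. Its Hep3B values were 12.38, 12.42 and 12.35 with siRNA, against 11.73 as the control mean, and rose by 0.65 ± 0.10 (adjusted p = 0.00118). HEATR1, the human UTP10, behaved in the same manner, at 9.57, 9.71 and 9.64 with siRNA and 9.53, 9.56 and 9.64 with control RNA in Huh7, and at 11.53, 11.64 and 11.70 against 11.08, 11.10 and 11.08 in Hep3B. WDR75 (0.13 and 0.27) passed in neither line.

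Of the other 11 processome members, 3 rose in Huh7 and 6 in Hep3B, beside 15.4% and 21.1% of named genes above background. The difference of these counts from those shares was not tested. UTP20, a very large scaffold, read 10.26, 10.32 and 10.30 on Huh7 siRNA arrays, against 9.82, 9.75 and 9.79 on Huh7 control arrays. Hep3B arrays read 9.56, 9.52 and 9.52 with siRNA, against 8.56, 8.70 and 8.66 with control RNA. The arrays of a group differed by little beside the shift, which was 0.51 ± 0.06 in Huh7 (adjusted p = 0.000484) and 0.89 ± 0.06 in Hep3B (adjusted p = 8.65e-06). NOP14 (0.38 and 0.55) and NOL6 (0.35 and 0.47) were the others called in both lines, although NOL6 stayed below the brightest background row in all groups. In Huh7 the NOP14 call was lost without control array 2 or 3 or siRNA array 1 or 3 (adjusted p up to 0.110 over its alternatives), and the NOL6 call without control array 2 or siRNA array 1 (up to 0.106). UTP18, a WD repeat protein, read 7.30, 7.33 and 7.65 against 7.20, 7.28 and 7.01 in Huh7, a change of 0.27 that did not pass (adjusted p = 0.169). In Hep3B it read 8.22, 8.17 and 8.17 with siRNA, against 7.48, 7.56 and 7.59 with control RNA, a rise of 0.64 ± 0.10. UTP6 (0.53) and WDR36 (0.64) rose in Hep3B. UTP3 (0.62), UTP14A (0.42), WDR3 (0.31), DDX10 (0.13) and RRP9 (0.12), the U3-specific protein, did not pass there, nor did they in Huh7, where they ranged from -0.28 (DDX10) to 0.34 (UTP3). In both Huh7 groups UTP3 lay below the brightest background row.

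In the late maturation of the small subunit, 2 of 6 factors rose in Huh7 and 4 of 6 in Hep3B. Among named genes above background 15.4% rose in Huh7 and 21.1% in Hep3B, and the difference from these shares was not tested. TSR1, a GTPase-like protein of late pre-40S particles, read 9.90, 9.84 and 9.80 on Huh7 siRNA arrays, against 9.28, 9.28 and 9.14 on Huh7 control arrays, and 10.71, 10.92 and 10.74 on Hep3B siRNA arrays, against 9.80, 10.01 and 9.96 on Hep3B control arrays. It rose by 0.61 ± 0.08 in Huh7 (adjusted p = 0.00104) and by 0.86 ± 0.08 in Hep3B (adjusted p = 7.35e-05). LTV1, an export-linked factor, read 10.26, 10.41 and 9.91 with siRNA and 10.08, 10.13 and 9.95 with control RNA in Huh7, where the groups overlapped. In Hep3B it read 11.10, 11.10 and 11.07 with siRNA, against 10.39, 10.40 and 10.39 with control RNA, and rose by 0.70 ± 0.11. BYSL (0.47) rose in Hep3B from a control level within background. RRP12 was called in both lines (0.29 and 0.33), below the brightest background row throughout, and its Huh7 call was lost without any single Huh7 array and its Hep3B call without control array 1 or 2 or siRNA array 2 or 3 of Hep3B. NOB1 (0.27 and 0.02), the nuclease that makes the final cut at the end of 18S RNA, and its partner PNO1 (0.18 and 0.27) passed in neither line.

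Large subunit factors rose in 1 of 8 cases in Huh7 and in 6 of 8 in Hep3B, beside 15.4% and 21.1% of named genes above background. The Huh7 count was near the 15.4% and is no result about these factors. DDX56, a nucleolar helicase, was the one called in both lines. It read 8.56, 8.58 and 8.49 on Huh7 siRNA arrays, against 7.94, 8.003 and 8.27 on Huh7 control arrays, and 9.34, 9.61 and 9.56 on Hep3B siRNA arrays, against 8.49, 8.59 and 8.62 on Hep3B control arrays. The groups did not overlap in either line. The change was 0.47 ± 0.10 in Huh7 (adjusted p = 0.0143, and 0.0594 or 0.0547 when control array 1 or 2 was left out, and 0.0751 with the 6 Huh7 arrays alone, in a range from 0.00408 to 0.0751 over its alternatives) and 0.94 ± 0.10 in Hep3B (adjusted p = 0.00014). RRS1, which brings 5S RNA proteins into the particle, read 7.40, 7.70 and 7.99 with siRNA and 7.42, 7.54 and 7.34 with control RNA in Huh7, where the siRNA arrays spread widely. In Hep3B it read 7.64, 7.75 and 7.66 with siRNA, against 6.93, 7.06 and 6.99 with control RNA, and rose by 0.69 ± 0.13. Of the PeBoW complex, PES1 (0.27) and WDR12 (0.33) rose in Hep3B, while BOP1 (0.15), below the brightest background row, did not pass. NOP16 (0.57, from a control level within background) and MRTO4 (0.41) rose in Hep3B as well. The MRTO4 call was lost without any single Hep3B array (adjusted p up to 0.114 over its alternatives), and the PES1 call without control array 1 or 2 or siRNA array 3 of Hep3B (up to 0.0930). NOP2 (0.43), a cytosine methyltransferase of 28S RNA, did not pass and had a 95% interval from -0.02 to 0.89.

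Small and large subunit factors were set side by side by their counts and medians, and the difference between the 2 lists was not tested. The median log2 change was 0.26 for small and 0.16 for large subunit factors in Huh7, and 0.54 and 0.42 in Hep3B. On the 3 Huh7 siRNA arrays the small subunit factors averaged 0.19, 0.28 and 0.21 above their Huh7 control means, and the large subunit factors 0.09, 0.11 and 0.34. On Hep3B siRNA arrays the averages were 0.45, 0.53 and 0.51 for small and 0.43, 0.50 and 0.50 for large subunit factors. The order of the 2 lists turned round on Huh7 siRNA array 3, and in Hep3B they differed by at most a few hundredths. Leaving out either control array 2 or siRNA array 1 of Huh7 lowered its 7 small subunit rises to 3. Its 1 large subunit rise became 0 without control array 2 and 2 without siRNA array 1 or 2. These counts do not follow single genes, and the call of DDX56, that 1 rise, was lost without control array 1 or 2.

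The siRNA change was lower in Huh7 than in Hep3B for 40 of 43 factors, and for 4 of them the difference itself passed the test. Over all rows tested 0.927% were called lower in the difference and 0.945% higher, and among named genes above background 3.63% and 3.19%. In that bright background 4528 of 7897 genes had a negative difference. NCL differed by -0.61 ± 0.09 (adjusted p = 0.00661), with changes of -0.22 in Huh7 and 0.40 in Hep3B. NOL11 differed by -0.66 ± 0.14 (adjusted p = 0.0344), DDX21 by -0.64 ± 0.13 (adjusted p = 0.0297) and HEATR1 by -0.48 ± 0.10 (adjusted p = 0.0335). NCL was called in every alternative run. The count of 4 was 1 with replicate numbers as a block and 2 after median centring. It was 1 without Hep3B control array 1, 2 or 3, Hep3B siRNA array 2 or 3, Huh7 control array 1 or Huh7 siRNA array 1, and 2 without Huh7 control array 2 or 3. For NOLC1 the difference was -0.31 with a 95% interval from -0.59 to -0.03, and it did not pass (adjusted p = 0.336). NHP2, RRP9 and NOB1 had a positive difference, none past the threshold. Across the 43 factors the changes in the 2 lines had a Pearson r of 0.851 and a Spearman rho of 0.676, and without NOLC1 0.707 and 0.652. This is a description across genes that share arrays within a line, and genes are not independent replicates.

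**Figure D3:**
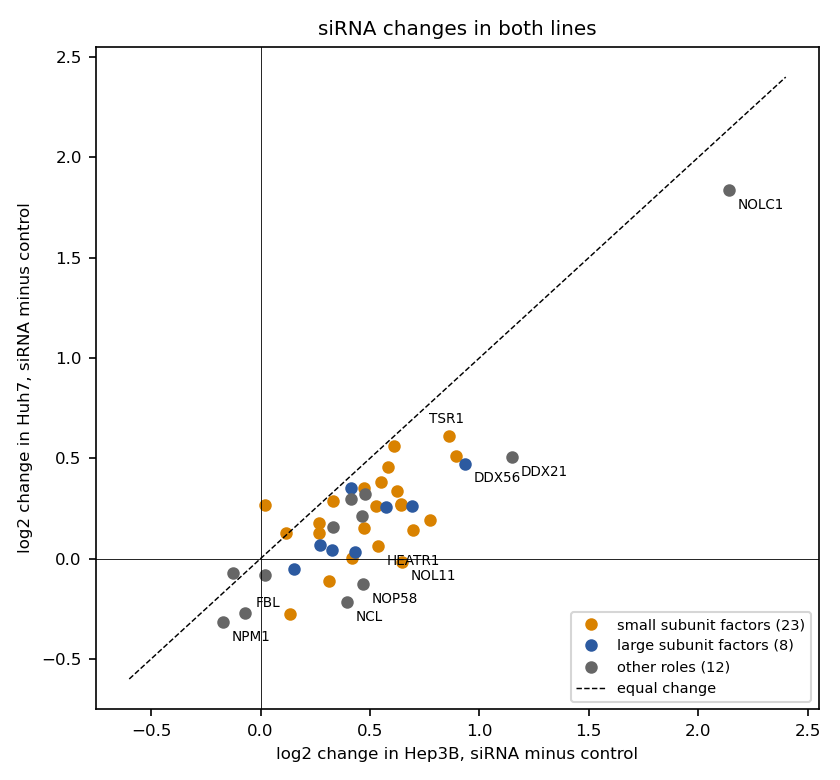
Log2 change of each of 43 factors in Hep3B (x axis) and Huh7 (y axis), coloured by role, with a dashed line of equal change. 40 factors lie below the line, and NOLC1 stands apart at 2.14 in Hep3B and 1.84 in Huh7.

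Without siRNA, Huh7 control cells differed from Hep3B control cells in 26 of 43 factors, with 16 higher and 10 lower in Huh7. Over all rows 11% were higher and 9.9% lower, and among named genes above background 35.7% and 29.1%, so the factors' shares were near those of other bright genes. The largest excess in Huh7 was that of NOP58, at 15.54, 15.60 and 15.17 against 14.03, 14.05 and 14.02 in Hep3B, a difference of 1.40 ± 0.12 (adjusted p = 5.47e-06). UTP14A (1.17), UTP20 (1.15), UTP4 (1.02), NPM1 (0.98), NOB1 (0.85), NOP16 (0.83) and NCL (0.83) were higher as well. HEATR1 was lower in Huh7 by 1.51 ± 0.07 (log2 difference -1.51, adjusted p = 2.96e-08), and UTP3 (-1.20), RRN3 (-0.99) and TSR1 (-0.69) were lower too. The UTP3 level in Huh7 was below the brightest background row. Of the factors that rose with siRNA in both lines, NOLC1 (-0.07), DDX21 (0.07), WDR43 (0.03), TCOF1 (0.15) and NOL6 (0.04) did not differ by the test between the control groups. The others did: UTP4, UTP20 and RRP12 (0.31) were higher in Huh7, and TSR1, DDX56 (-0.50) and NOP14 (-0.37) lower. Control arrays of each line enter this comparison and the siRNA comparisons alike, so the values are given side by side with no relation drawn between them.

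A wider list of 110 other ribosome biogenesis genes, 107 of them measured, went the same way in counts. In Huh7 24 rose and 1 fell, beside 15.4% and 17.2% of named genes above background. In Hep3B 58 rose and none fell, beside 21.1% and 18% of named genes above background. The medians of the list were 0.17 in Huh7 and 0.37 in Hep3B. Over the alternatives the rises ranged from 7 to 36 in Huh7 and from 31 to 69 in Hep3B. The 3 largest rises in Huh7 were SBDS, which removes an anti-association factor from the large subunit (0.90), the helicase DHX37 (0.77, below the brightest background row) and the kinase RIOK3 (0.71). LAS1L, a subunit of the complex that cuts the second internal spacer, fell there by 0.40 on the log2 scale (-0.40, adjusted p = 0.02). The 3 largest in Hep3B were ZNF622 (1.24), the GTPase GTPBP4 (1.17) and MPHOSPH10, a U3 protein (1.15). By step, 15 of 46 other large subunit genes rose in Huh7 and 31 in Hep3B, 7 and 20 of 33 other small subunit genes, and 2 and 6 of 12 other polymerase I genes. Among named genes above background 15.4% rose in Huh7 and 21.1% in Hep3B. In Huh7 the 2 of 12 polymerase I genes and the 7 of 33 small subunit genes were near that share and are no result about them. Genes of snoRNP assembly and RNA modification stood lowest, with 0 of 16 in Huh7 and 1 of 16 in Hep3B (NUFIP1, 0.45). Differences between these lists, and from the shares of named genes above background, were not tested. The wider list too was chosen with earlier results of these data known.

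**Figure D4:**
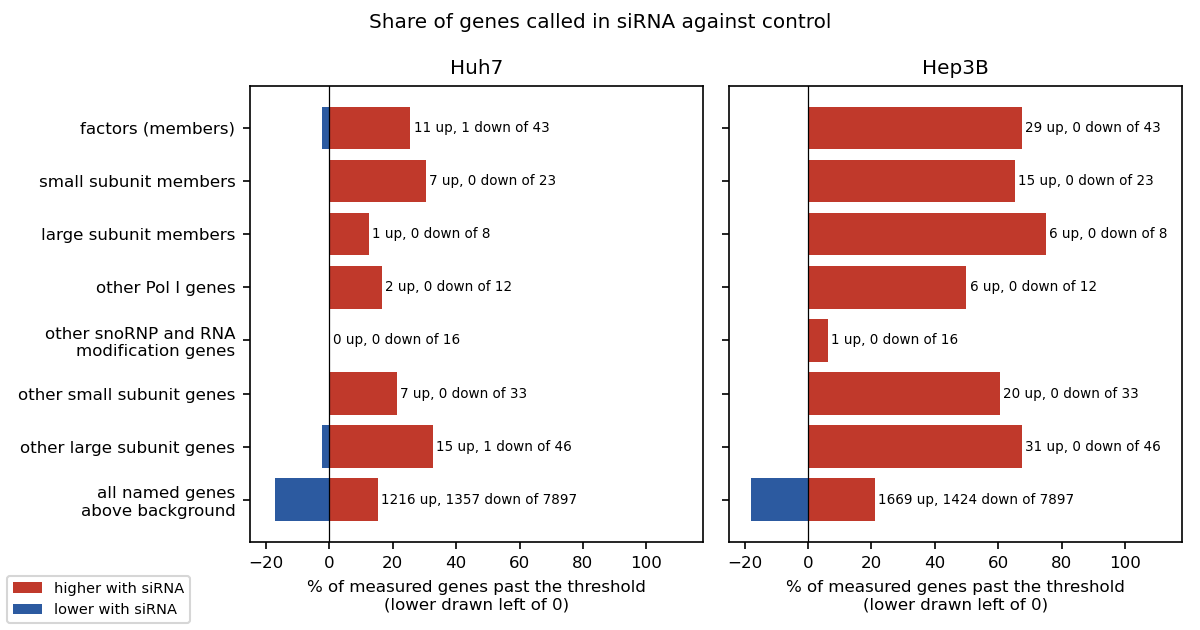
Percent of measured genes called higher (red, right of 0) or lower (blue, left of 0) with siRNA in Huh7 (left panel) and Hep3B (right panel), by list, with counts beside the bars. In Hep3B 29 of 43 factors rose, beside 21.1% of named genes above background; in Huh7 11 of 43 rose, beside 15.4%.

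Introns of several factors carry small nucleolar RNAs, and 14 of 22 listed had a row of their own. None rose, and 2 of 14 fell in each line, a share above that of all rows (3.49% in Huh7 and 4.66% in Hep3B) and below that of named genes above background (17.2% and 18%). SNORD105B, of the PPAN introns, fell by 0.87 ± 0.19 in Huh7 (log2 change -0.87, adjusted p = 0.0178) and by 1.89 ± 0.19 in Hep3B (log2 change -1.89, adjusted p = 9.99e-05). SNORD69, of GNL3, fell by 0.44 in Huh7 and by 0.47 in Hep3B. For both the host gene itself is not analysed here. The 10 rows in introns of NCL, NOP58, WDR43 and TSR1 passed in neither line. They ranged from -1.17 (SNORD82, of NCL) to 0.48 (SNORD11B, of NOP58) in Huh7. In Hep3B they ranged from -1.04 (SNORD82) to 0.34 (SNORD92, of WDR43). SNORD70, SNORD92, SNORD91A and SNORD91B lay below the brightest background row in all groups. SNORD20, SNORA75 and SNORD11B lay below it in both Hep3B groups. The rows below background are limited by signal, and whether they followed their hosts cannot be told from them. SNORD82, SNORD11 (of NOP58) and SNORD53 (of WDR43) were above background in all groups. In Hep3B, where their hosts rose, they changed by -1.04, -0.04 and -0.31, and in Huh7 by -1.17, 0.20 and 0.03. The siRNA arrays of SNORD82 and SNORD53 lay below the controls in Hep3B, without a call, and those of SNORD11 overlapped them. A relation to the hosts was not tested.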

How the data were processed

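The authors' deposited table holds 1 log2 value per row and array, which the submitters' processing notes credit to Agilent Feature Extraction 10.7.1.1, while per the labels' protocols labelling followed an Affymetrix protocol. Summarisation and normalization between arrays are not given in the sources used here, nor is the genome build of the rows. Of 70523 rows, 67528 transcript clusters were kept and quantile normalized with 23 background rows, because array medians differed by 0.124. Per symbol the brightest of several rows was used, which left 66212 rows. A model with 1 mean per group over 12 arrays (8 residual degrees of freedom) was fitted with limma 3.58.1 in R 4.3.3, with a trend of the spread, two-sided p-values and Benjamini-Hochberg adjustment over all rows. No filter on dim rows was used, and the number of arrays limits the precision. The procedure was tested on simulated data. Replicate numbers were not used as pairs, since the labels do not say that a number marks a shared culture or day. Deviations of same-numbered arrays correlated at -0.233 to 0.250. Differently numbered arrays were not set beside them, so these values do not decide whether arrays were paired. Alternatives were other normalizations, row filters, spread models, a 1.5-fold minimum, replicate blocks and leaving out each array.

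Members, roles and lists were chosen with earlier results of these data known. Array values are given for the 2 largest called changes per role, for the 3 largest differences between lines and for factors whose promoter is printed. HEATR1, and the examples in the comparison of control groups, were added after their values were seen. Promoters are from RefSeq, and NOLC1, TCOF1, BOP1, RRP12, RRS1 and NOP58 were not found there. Figures used matplotlib 3.10.9.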

Additional observations from a re-analysis of the deposited data

Results flagged for a closer look

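The change with siRNA differed between the lines for 4 of the 43 factors and for 9 of the 107 other ribosome biogenesis genes. This was by a test of the difference itself (Huh7 minus Hep3B, limma adjusted p under 0.05), in every case with the lower value in Huh7. By the same test 0.927% of all rows and 3.63% of named genes above background were called lower. Whether the counts differ from these shares was not tested. Of the 4 factors only NCL was called in every alternative, and the count of 9 ranged from 1 to 16. Among the factors the log2 difference was -0.61 for NCL, -0.64 for DDX21, -0.48 for HEATR1 and -0.66 for NOL11. For the remaining genes it was -0.75 for POLR1F (0.03 in Huh7 and 0.77 in Hep3B), -0.51 for POLR1H, -0.54 for UBTF, the DNA-binding factor of polymerase I (0.15 in Huh7 and 0.69 in Hep3B), -0.68 for RRP7A, -0.61 for NMD3, -0.76 for SDAD1, -0.65 for GTPBP4, -0.59 for ZNF622 and -0.86 for CEBPZ (-0.25 in Huh7 and 0.61 in Hep3B). POLR1H lay below the brightest background row in all groups. Groups of 3 arrays were not searched for single arrays that stand apart.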

How the results depend on the processing

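No call of a factor changed direction under any alternative. The counts below are of factors, and the shares of other genes under the alternatives are not given here. The Hep3B count of 29 rises was 12 with a 1.5-fold minimum and 22 to 31 without single arrays, and 22 of the 29 calls held in every alternative other than that minimum. The count of 0 falls became 1 among rows above background. In Huh7 the 11 rises became 2 with the 1.5-fold minimum, 5 with the Huh7 arrays alone and 6 to 10 without single arrays, and 5 calls (DDX21, NOLC1, TSR1, UTP20 and WDR43) held in every alternative other than the minimum. The 1 fall became 0 on deposited values, after median centring, with the minimum or with the Huh7 arrays alone, 2 with array weights and 3 among bright rows, rows above background or named genes, and stayed 1 without single arrays. The 4 negative differences became 2 after median centring, 8 among rows above background, 1 with a replicate block and 1 to 5 without single arrays. Between control groups, 16 higher became 9 and 10 lower became 4 with the minimum, and 4 lower after median centring; without single arrays they were 13 to 16 and 7 to 10. Small subunit rises in Hep3B (15) became 8 with the minimum and 14 to 18 without single arrays; in Huh7 (7) they became 1 with the minimum, 3 with the Huh7 arrays alone and 3 to 6 without single arrays. The 2 negative small subunit differences became 1 on deposited values, after median centring or with the minimum, 4 among bright rows, named genes or with array weights, 5 above background, 0 with a replicate block and 0 to 3 without single arrays. Large subunit rises in Hep3B (6) became 2 with the minimum and 4 to 5 without single arrays; in Huh7 (1) they became 2 on deposited values, after median centring, with cyclic loess or among bright rows, 3 above background or among named genes, 0 with the minimum or with the Huh7 arrays alone, and 0 to 2 without single arrays. Filters test fewer rows and the minimum removes small changes by construction; other causes were not tested. With the replicate block 28 rose in Hep3B and 10 rose and 1 fell in Huh7. The labels do not say what a replicate number marks, so whether the block is a pairing is not known. The 8 factors with a group mean below the brightest background row are limited by signal: among the 35 above it in all groups, 9 rose and 1 fell in Huh7 and 25 rose and 0 fell in Hep3B.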
